A study of Mus musculus with 11 samples.

Results

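The genes described here encode the proteins of the cytosolic ribosome. They were chosen by gene name: Rpl or Rps with a number and at most one short suffix, Rplp0 to Rplp2, and Rpsa, without pseudogene names and without the kinases called Rps6k. The rule found 84 names among 24062 in the table of the Ift88 experiment and 84 among 26667 in the table of the Dzip1 experiment, in each case 51 of the large subunit and 33 of the small subunit. Both tables share 82 of these symbols, and the others are older and newer names of the same genes (Rps3a1 and Rps4l in the first, Rps3a and Rps4y2 in the second). GENCODE M21 lists Rps4l, the same gene as Rps4y2, as a transcribed processed pseudogene, and the name rule kept it as a small-subunit member. The rule leaves out ribosomal protein genes with names of another form, such as Fau.

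The cytosolic ribosome reads mRNA with its small subunit and joins amino acids with its large subunit, and each subunit holds 1 copy of most of its proteins. A stalk on the large subunit, built on Rplp0 and carrying Rplp1 and Rplp2, recruits elongation factors. Most mRNAs of these proteins begin with a run of pyrimidines (C or T in the gene), the 5′ terminal oligopyrimidine tract, through which mTOR and Larp1 set how much of the mRNA is translated. Counts of RNA do not measure that translation.

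RNA was sequenced from mitral leaflets of the mouse heart, the moving sheets of the valve through which blood enters the left ventricle. In the Ift88 experiment, 3 libraries were labelled knockout (NfatC1Cre(+), Ift88f/f) and 2 wild type (NfatC1Cre(+), Ift88+/+). Both groups thus carried a Cre recombinase under the Nfatc1 promoter, which is active in endocardial and valve endothelial cells, and the floxed gene is removed only in cells with a history of that promoter. Ift88 encodes a protein of intraflagellar transport, which builds cilia. In the Dzip1 experiment, 3 libraries were Dzip1S14R/+, heterozygous for a point mutation of a protein of the ciliary base, and 3 were Dzip1+/+. The mice's ages were not given in the sources used here. Whether each library came from its own animal is not in the labels, and p-values therefore reflect the spread among these libraries alone, which may be technical.

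Total counts ran from 23.4 to 53.8 M in the 5 Ift88 libraries and from 75.1 to 93.5 M in the 6 Dzip1 libraries. The biological coefficient of variation, the spread between libraries of a group beyond counting error, was 87.7% for Ift88 and 7.85% for Dzip1. Ift88 itself had 95, 166 and 10 counts in the 3 libraries labelled knockout, against 198 and 1143 in their wild type. Valve interstitial markers (9 genes such as Col1a1 and Vcan) were present in all 11 libraries, and summed to 2812 and 7790 CPM (counts divided by the library's total in M) in the Ift88 wild type and to between 8038 and 11770 CPM in the knockout. Cardiomyocyte markers (20 genes) summed to between 34490 and 78920 CPM in 4 Ift88 libraries but to 204 CPM in wild-type replicate 2, and of the list only Sln was at 0 in any library (knockout replicate 1). Endothelial markers (12 genes) summed to 473 and 3346 CPM in the Ift88 wild type and to between 2005 and 2650 CPM in the knockout. In the Dzip1 libraries cardiomyocyte markers summed to between 46120 and 54600 CPM. All levels here and below, the marker sums included, are CPM scaled by TMM, a factor that evens out library composition. The 2 tables were scaled apart, so differences in level between them were not tested.

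The start sites show the pyrimidine run and its exceptions among some of the members described below. Each window runs from 30 bases before to 20 bases after the RefSeq start (GRCm38.p6), on the gene's strand, and capitals mark the longest run of at least 6 C or T. The first 3 are members with a long run at the start, and the last is the striated muscle form Rpl3l. The 4 between them were picked from their values in the Dzip1 libraries, and none was called in the fit of all libraries.
Rps6: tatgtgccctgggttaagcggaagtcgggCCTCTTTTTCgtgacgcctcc
Rplp2: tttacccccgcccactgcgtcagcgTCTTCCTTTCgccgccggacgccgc
Rpl38: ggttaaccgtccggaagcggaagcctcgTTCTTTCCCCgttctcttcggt
Rps21: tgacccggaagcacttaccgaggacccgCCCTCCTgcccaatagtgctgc
Rpl22l1: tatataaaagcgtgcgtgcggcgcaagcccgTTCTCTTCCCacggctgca
Rps12: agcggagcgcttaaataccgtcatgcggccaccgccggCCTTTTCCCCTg
Rps28: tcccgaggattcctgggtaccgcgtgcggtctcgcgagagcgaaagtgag
Rpl3l: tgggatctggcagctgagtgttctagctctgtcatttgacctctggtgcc
They lie at chr4:86857348-86857397 (minus strand), chr7:141447621-141447670, chr11:114668550-114668599, chr2:180257349-180257398, chr3:28805478-28805527 (all plus), chr10:23787190-23787239 (minus), chr17:33824543-33824592 (minus) and chr17:24727796-24727845 (plus). In Rps6 the run begins at the last base before the listed start, and in Rps12 it begins 9 bases into the transcript. Rps28 and Rpl3l have no run of 6 in this window.

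Of the 84 members, 63 had a RefSeq promoter entry. A pyrimidine run of at least 6 on the gene's own strand stood in 42 of these 63 windows (66.7%), against 44.8% of all 27025 promoters. On the opposite strand the order was turned, with 34.9% of the members and 46.8% of all promoters. Over the whole 300-base entry, on either strand, CCGGAA (the core of an Ets-type site) occurred in 50.8% of members and 15.2% of all promoters, and CTTTCC, which can lie inside a pyrimidine run, in 47.6% and 26.3%. TATAAA occurred in 9.52% of members and 14.2% of all promoters. Such matches describe the letters and are not evidence of binding.

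The first comparison asked how these genes differ when Ift88 is knocked out. The members together took 2.52% and 4.85% of all counts in the wild type and 2.86%, 2.51% and 2.21% in the knockout. Wild-type replicate 2 stood apart from the other 4, and wild-type replicate 1 lay within the range of the knockout libraries. The log2 ratio of the knockout share to the wild-type share was -0.54, and without wild-type replicate 2 it was 0.0028. The counts of the cardiomyocyte marker genes alone were then taken out of the total. The shares became 2.70% and 4.85% in the wild type and 3.00%, 2.60% and 2.33% in the knockout. Other RNA of cardiomyocytes stays in the counts, so the part of these cells was not tested. The part of the other marker lists was not tested either. In bulk tissue, fewer cells of a type and less RNA per cell cannot be told apart.

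**Figure D1:**
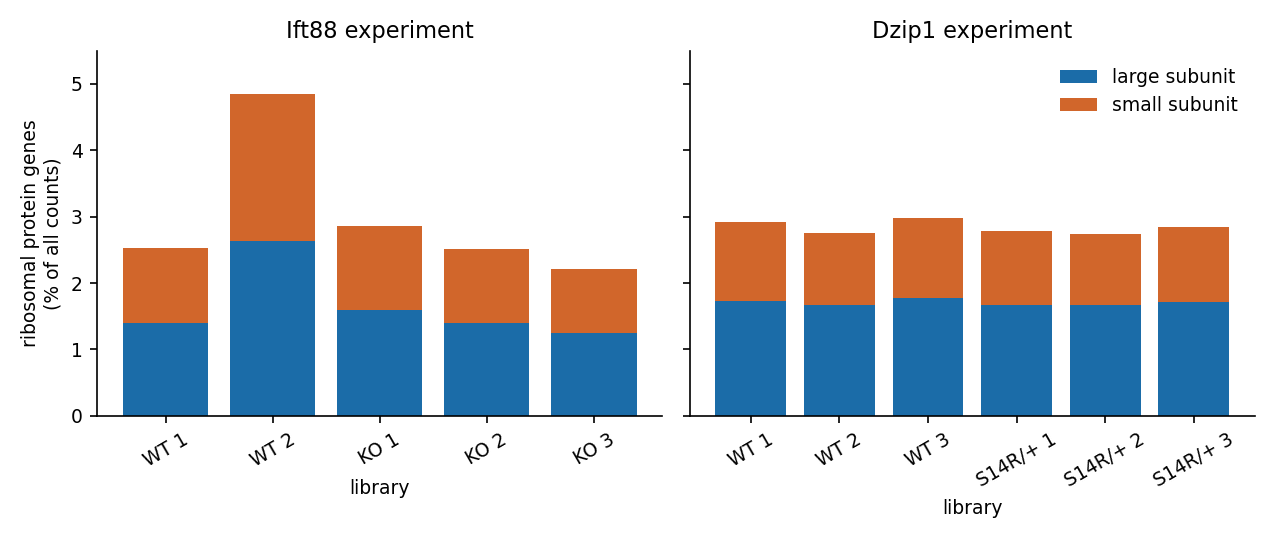
Share of all counts (in percent) in ribosomal protein genes, by library, stacked as large subunit (blue) and small subunit (orange). Wild-type replicate 2 of the Ift88 experiment reaches 4.85%, while the other 4 Ift88 libraries lie between 2.21% and 2.86% and the 6 Dzip1 libraries between 2.74% and 2.98%.

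Large and small subunit genes kept a nearly constant ratio. Large-subunit counts over small-subunit counts were 1.24 and 1.19 in the Ift88 wild type and 1.26, 1.25 and 1.29 in the knockout. All 3 knockout ratios lay above both wild-type ratios, but the gap between the groups was smaller than the range within the wild type. The Dzip1 table had ratios of 1.47, 1.55 and 1.48 in the wild type and 1.52, 1.55 and 1.51 in S14R/+, which overlap.

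Of the 84 members, 82 passed the low-count filter of the Ift88 experiment, and none passed the threshold in edgeR (adjusted p between 0.802 and 1.00). edgeR called 0% of all 14244 tested genes. At an unadjusted p under 0.05 edgeR gave 1 member, Rps14, against 6.01% of all tested genes. limma-voom gave 8 members, against 6.93% of genes, and called none. DESeq2 gave 15, against 9.59%. DESeq2 called no member, while it called 2.39% of the genes it tested. The median log2 fold change (knockout over wild type) of the tested members was -0.61, against -0.01 for all tested genes. It was -0.55 for the 49 large-subunit members and -0.64 for the 33 small-subunit members. Of the 82, 78 had a value below 0, as did 50.6% of all tested genes. Every knockout library lay below both wild-type libraries in 44 members (25 large, 19 small), a pattern found in 11.1% of tested genes. The reverse pattern occurred in 0 members and in 13.5% of tested genes.

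**Figure D2:**
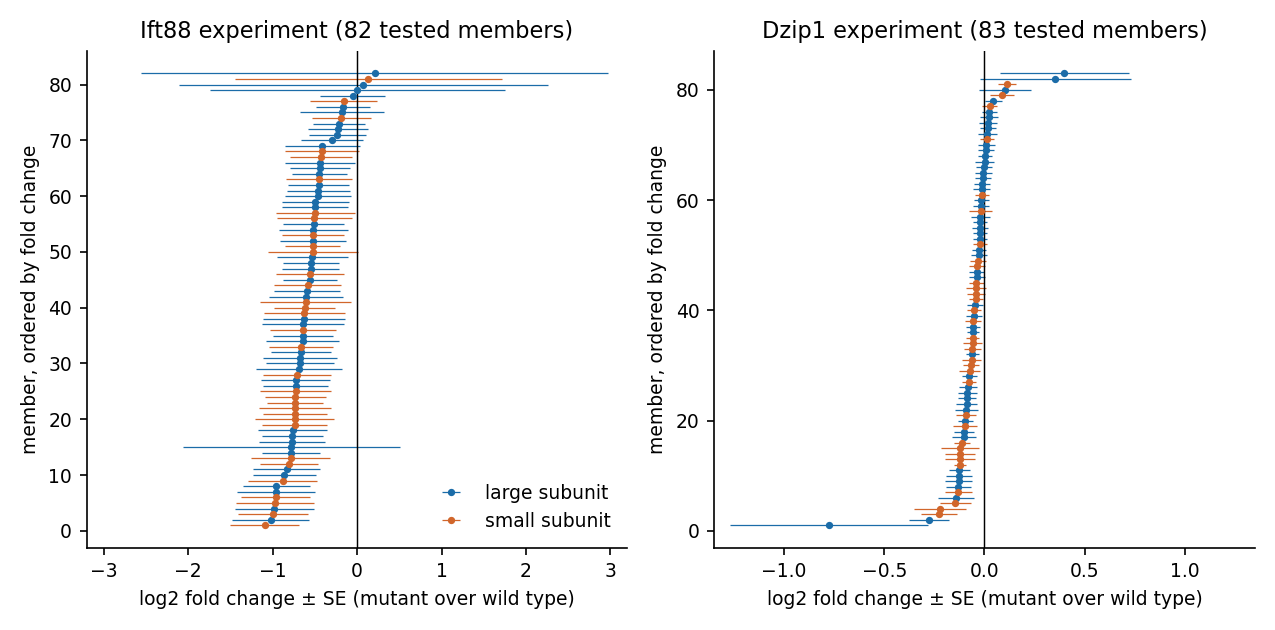
Log2 fold change with its standard error for each tested member, ordered within each experiment; the 2 panels have different horizontal scales. In the Ift88 experiment 78 of 82 points lie left of 0 with standard errors near 0.40, and in the Dzip1 experiment 66 of 83 lie left of 0 with standard errors near 0.04.

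Single libraries carried much of this. Wild-type replicate 2 was the highest library in 72 of 82 members, against 23.7% of all tested genes, and knockout replicate 3 was the lowest in 61, against 19.3%. Without wild-type replicate 2 the median of the members was -0.29, with 71 of 82 below 0 against 42.9% of all genes, and 1 member had an unadjusted p under 0.05 against 16% of all genes. Without wild-type replicate 1 the median was -0.85, with 42 members at an unadjusted p under 0.05 (41 of them lower) against 13.1% of all genes. edgeR called no member in either fit, with 0% and 1.22% of all genes called. The titles of the Ift88 libraries all carry the word re-analyzed, without saying what was analyzed again, and those of the Dzip1 libraries do not. After the genotype, the Ift88 titles hold the code IR28N (wild-type replicate 1, knockout replicates 1 and 2) or a code beginning with IRN. The IRN codes of wild-type replicate 2 and knockout replicate 3 differ from each other. These 2 libraries were put together here as 1 title prefix, a grouping that the labels do not give. Over the 77 members with a mean of at least 20 CPM, the median log2 ratio was -0.15 among the IR28N libraries, with 61 below 0, and -1.20 between the 2 IRN libraries, with 75 below 0. The same ratios over all 7233 genes at that level were -0.07 and -0.02. With 1 wild-type library per prefix these 2 ratios carry no test of their own. A fit over all 5 libraries with the title prefix as a covariate gave a median of -0.61 for the members (-0.57 large, -0.65 small), with 77 of 82 below 0. edgeR called no member in it (adjusted p between 0.815 and 1.00) and 0% of all genes, and no member had an unadjusted p under 0.05, against 5.29% of all genes.

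Rps14, a protein of the small-subunit platform, had the lowest fold change. It stood at 1028 and 1769 CPM in the wild type and at 776, 601 and 587 CPM in the knockout, with a log2 fold change of -1.09 ± 0.41 (SE; adjusted p = 0.802 in edgeR). All 3 knockout libraries were lower than both wild-type libraries. Rpl32, of the large subunit, came next with 528 and 991 CPM against 480, 377 and 263 CPM (-1.02 ± 0.45, adjusted p = 0.802 in edgeR). Its groups did not overlap, and its nearest libraries differed by less than the wild-type libraries did. Rps9 and Rpl35 followed with -0.995 ± 0.41 and -0.98 ± 0.47, and the groups of Rpl35 overlapped.

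The stalk proteins had wild-type libraries close to each other. Rplp0 stood at 1866 and 2089 CPM in the wild type and at 1180, 956 and 1132 CPM in the knockout (-0.86 ± 0.37, adjusted p = 0.802 in edgeR). Rplp2 stood at 211 and 210 CPM in the wild type and at 160, 122 and 90.1 CPM in the knockout (-0.76 ± 0.36). In both genes the gap between the groups was wider than the range within the wild type. Rplp1 stood at 297 and 355 CPM against 259, 210 and 157 CPM (-0.64 ± 0.36), also without overlap. Rps27l, a form of Rps27 known as a p53 target, was similar with 322 and 305 CPM against 221, 175 and 141 CPM (-0.81 ± 0.34). In this table Rps27 itself had only 12 to 90 counts against 3449 to 17567 for Rps27l, while in the Dzip1 table Rps27l stood at 14.7% to 17.1% of Rps27 per length. Which of the 2 genes the Rps27l counts of the Ift88 table come from is therefore uncertain.

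Rpl5 and Rpl11, which join the small ribosomal RNA of the large subunit and bind Mdm2 when ribosome assembly fails, gave different pictures of overlap. Rpl5 stood at 574 and 849 CPM in the wild type and at 555, 476 and 463 CPM in the knockout, without overlap. Rpl11 stood at 189 and 369 CPM against 202, 168 and 153 CPM, with overlap. Their log2 fold changes were -0.51 ± 0.37 and -0.67 ± 0.40.

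Among small-subunit members, Rps6, the substrate of the S6 kinases, stood at 692 and 1226 CPM in the wild type and at 716, 646 and 598 CPM in the knockout (-0.55 ± 0.40), with overlap. Rpsa, which also serves as a laminin receptor, stood at 1027 and 1318 CPM against 943, 800 and 878 CPM (-0.42 ± 0.36), without overlap. Rps19, mutated in Diamond-Blackfan anaemia, stood at 431 and 969 CPM against 515, 417 and 326 CPM (-0.74 ± 0.47), with overlap. In Rps6 and Rps19 wild-type replicate 2 was the highest library and wild-type replicate 1 lay within the knockout range.

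The members nearest to 0 included 2 with high counts. Rpl4, at the tunnel through which new protein leaves, stood at 501 and 730 CPM in the wild type and at 702, 602 and 480 CPM in the knockout (-0.05 ± 0.39). Rps4x, the X-linked small-subunit protein, stood at 503 and 467 CPM against 535, 477 and 293 CPM (-0.16 ± 0.40). Both sets overlapped, and in Rps4x knockout replicate 3 was the single low library. The 4 highest fold changes, of Rpl39l, Rps27, Rpl3l and Rpl30, were between 0.00 and 0.21 with standard errors between 1.58 and 2.76, from at most 136 counts in a library.

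Transcript length moved with these values. Genes were put into 5 groups of equal size by length. In the Ift88 experiment the group of the shortest genes, up to 1420 bases, held 77 of the 82 members, and its other 2749 genes had a median log2 fold change of -0.45 beside -0.62 for those members. The group of the longest genes had a median of 0.71. With the length trend removed in each library, the median of the members was -0.24, beside -0.12 for all genes. In the Dzip1 experiment the other genes of the shortest group had a median of 0.01, and its 78 members -0.04. The part of length in the Ift88 result was not tested further.

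**Figure D3:**
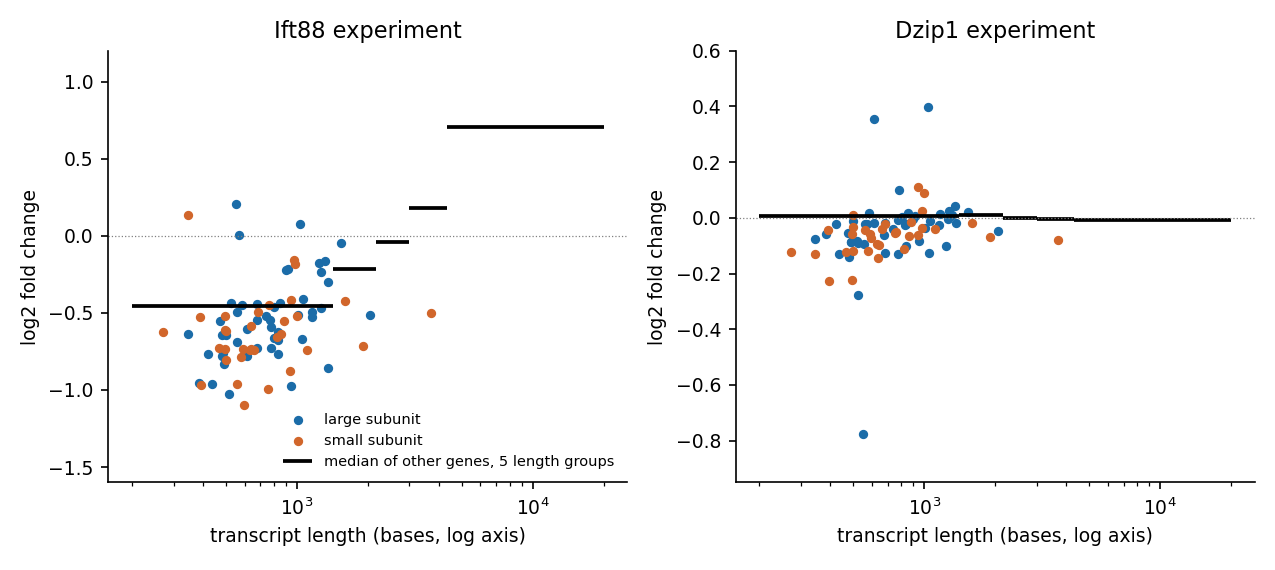
Log2 fold change of each tested member against transcript length in bases (log axis), with the median of all other genes in 5 groups of equal size by length as black bars (the outermost bars are drawn in part). In the Ift88 experiment the bars climb from -0.45 to 0.71 with length, and in the Dzip1 experiment they stay within 0.01 of 0.

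Within the members, length separated knockout replicate 3 from the others. Its median deviation from each gene's mean over libraries (log2 CPM) was -0.67 in the shortest of 3 equal groups of members by length and -0.31 in the longest. In wild-type replicate 2 those deviations were 0.64 and 0.53, and in knockout replicate 1 they were 0.07 and -0.01. Wild-type replicate 1 had 0.16 in the shortest group and 0.01 in the longest, the opposite direction to knockout replicate 3. Short members show this directly. Rps29 stood at 197 and 220 CPM in the wild type and at 203, 170 and 62.0 CPM in the knockout, and Rpl38, shown above with its pyrimidine run, at 127 and 155 CPM against 123, 104 and 45.0 CPM. In both genes knockout replicate 3 was the lowest library by a wide margin. The sources used here give no measure of RNA quality, and its part was not tested.

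**Figure D4:**
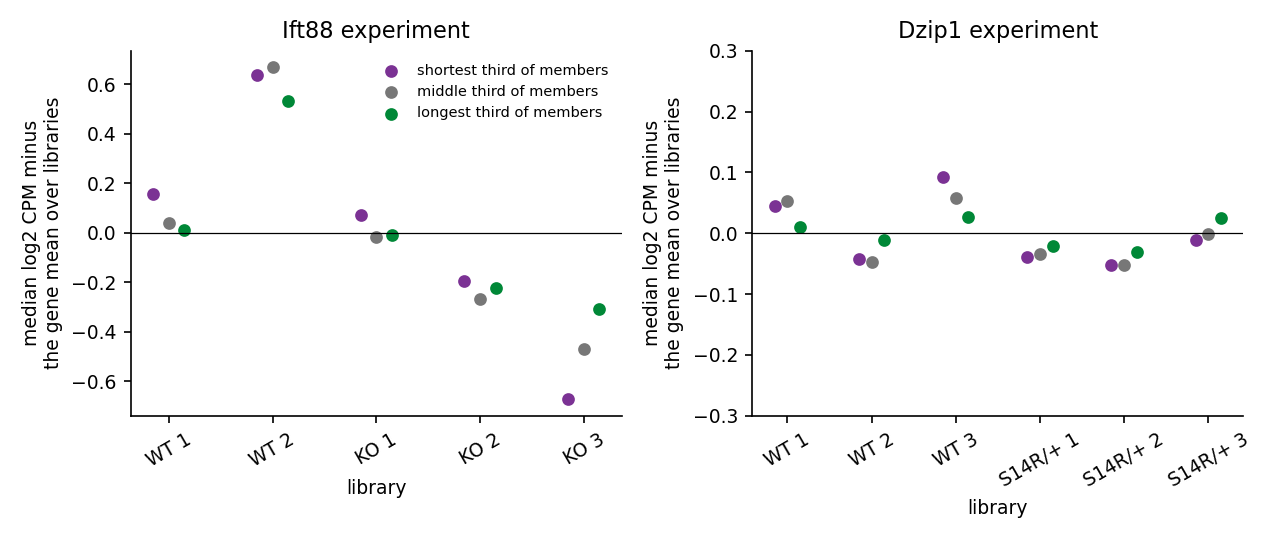
Median deviation of members from their own mean over libraries (log2 CPM), for the shortest, middle and longest of 3 equal groups of members by transcript length; each point is 1 library and 1 group, and the 2 panels have different vertical scales. Knockout replicate 3 spreads from -0.67 to -0.31 between the groups, and wild-type replicate 2 lies between 0.53 and 0.67.

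Paralogs with restricted use were measured beside their parent genes. Rpl3l, which replaces Rpl3 in striated muscle, had 136 and 0 counts in the Ift88 wild type and 89, 59 and 97 in the knockout. The library at 0 was wild-type replicate 2, which also had the lowest sum of cardiomyocyte markers (204 CPM); 0 counts there allow up to 0.0520 CPM, counting error only. Per length, Rpl3l reached at most 0.967% of Rpl3 in any Ift88 library and at most 0.0797% in the Dzip1 libraries, which held 19 to 45 counts. Rpl22l1, the paralog of Rpl22, stood near its parent in the Ift88 experiment, at 103% and 106% of Rpl22 per length in the wild type and 129%, 132% and 74.95% in the knockout. Knockout replicates 1 and 2 lay above the wild type and replicate 3 below it. Rpl10l, a testis form, had 0 counts in all libraries of both tables.

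The second comparison asked how these genes differ in leaflets with the Dzip1 S14R allele. The members took 2.92%, 2.76% and 2.98% of all counts in the wild type and 2.78%, 2.74% and 2.85% in S14R/+, which overlap. Of the 84 members 83 were tested, and edgeR called none (adjusted p between 0.822 and 0.998), as it called 0% of all 16160 tested genes. DESeq2 and limma-voom also called none. At an unadjusted p under 0.05 edgeR gave 7 members, 6 of them lower, against 5.93% of all tested genes, while DESeq2 gave 10, against 4.7%, and limma-voom 7, against 5.67%. The median log2 fold change was -0.04 (-0.02 for the large and -0.06 for the small subunit), beside -0.0003 for all tested genes. Values were below 0 in 66 of 83 members and in 50.1% of all tested genes, and 77 of 83 lay within 0.15 of 0. The median standard error of a member was 0.043 here and 0.397 in the Ift88 experiment.

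In 7 members every S14R/+ library lay below every wild-type library, a pattern found in 5.01% of tested genes. They were Rps28, Rps7, Rpl37a, Rps20, Rpl24, Rps13 and Rpl36. The reverse pattern occurred in 0 members and in 5.27% of tested genes. Rps28, at the mRNA exit of the small subunit, stood at 180, 182 and 184 CPM in the wild type and at 164, 170 and 168 CPM in S14R/+ (-0.12 ± 0.03, adjusted p = 0.822 in edgeR). The gap between its groups was wider than the range of either group. Rps7 stood at 386, 366 and 396 CPM against 349, 354 and 359 CPM (-0.11 ± 0.04, adjusted p = 0.822 in edgeR), with a gap narrower than the wild-type range. The other 5 had fold changes between -0.09 and -0.06.

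Other members had 2 high wild-type libraries and 1 near the S14R/+ level. Rps12, of the small subunit, stood at 366, 247 and 354 CPM in the wild type and at 289, 244 and 296 CPM in S14R/+ (-0.22 ± 0.13). Rps21 stood at 173, 132 and 178 CPM against 138, 135 and 140 CPM (-0.23 ± 0.09). Rpl22l1 stood at 64.7, 49.5 and 69.3 CPM against 51.0, 48.8 and 51.5 CPM (-0.28 ± 0.10, adjusted p = 0.822 in edgeR). In all 3 genes wild-type replicate 2 lay within or below the S14R/+ libraries, so the groups overlapped. Rpl22l1 reached 23.4%, 18.8% and 24.0% of Rpl22 per length in the wild type and 18.9%, 18.3% and 19.7% in S14R/+, with the same library out of line.

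**Figure D5:**
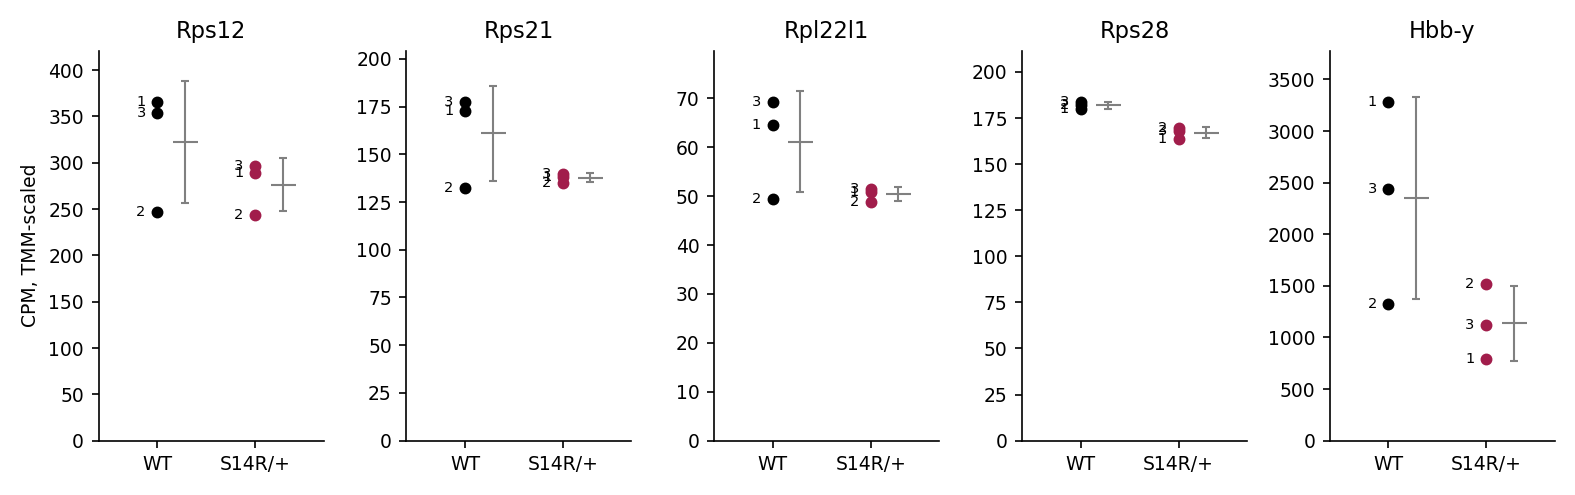
Level (CPM, TMM-scaled, axes from 0) of 4 members and of Hbb-y in each Dzip1 library, numbered by replicate, with the mean and SD of each group (n = 3) in grey. Rps28 has no overlap between groups (180 to 184 against 164 to 170), while in Rps12, Rps21 and Rpl22l1 wild-type replicate 2 sits with the S14R/+ libraries.

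Each library was left out in turn, and only the fit without wild-type replicate 2 changed the calls. edgeR then called 2 of 83 members, beside 0.0609% of all tested genes. Both owed the overlap of their groups to that library, so these calls are not separate evidence of a difference. They were Rpl22l1 (-0.41 ± 0.04, adjusted p = 0.0220 in edgeR) and Rps21 (-0.35 ± 0.04, adjusted p = 0.0242 in edgeR). Over their other alternatives the adjusted p ran from 0.529 to 1.00 for Rpl22l1 and from 0.803 to 1.00 for Rps21. Rps12, at -0.38 ± 0.07, and Rps28, at -0.12 ± 0.04, did not pass (adjusted p = 0.0800 and 0.188 in edgeR). At an unadjusted p under 0.05 there were 34 members, 33 of them lower, against 15.5% of all tested genes. Wild-type replicate 2 and S14R/+ replicate 2 were the closest pair of libraries, across the genotypes. Wild-type replicate 3 was the highest library in 39 of 83 members, against 22.5% of all tested genes, and S14R/+ replicate 2 the lowest in 34, against 14.5%.

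The sum of the red cell markers was lowest in wild-type replicate 2 among the wild-type libraries. The 6 listed markers summed to 754, 385 and 589 CPM in the wild type and to 199, 425 and 281 CPM in S14R/+, with none at 0, and Hbb-y, an embryonic globin, stood at 3285, 1326 and 2440 CPM against 788, 1514 and 1116 CPM. Wild-type replicates 1 and 3 were the highest in both, as they were in Rps12, Rps21 and Rpl22l1. Among the S14R/+ libraries replicate 2 was the highest in both and the lowest in those genes. The S14R/+ levels lay close together in Rps21 (138, 135 and 140 CPM) and in Rpl22l1 (51.0, 48.8 and 51.5 CPM). All 6 red cell markers had log2 fold changes below 0 (median -0.90), as did 11 of 12 leukocyte markers (median -0.34), 8 of 9 valve interstitial markers (median -0.18) and 7 of 9 smooth muscle and pericyte markers (median -0.09). Of the cardiomyocyte markers 18 of 20 were above 0 (median 0.09), and 7 of 12 endothelial markers were below 0 (median -0.01). edgeR called none of these genes. The 12 leukocyte markers summed to between 108 and 136 CPM in the wild type and between 95.04 and 106 CPM in S14R/+, with none at 0. The part of these cell types in the levels of Rps12, Rps21 and Rpl22l1 was not tested.

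The stalk proteins, Rpl5, Rpl11, Rps6 and Rpl4 were close to equal between the Dzip1 groups. Rplp0 stood at 1209, 1214 and 1208 CPM in the wild type and at 1175, 1172 and 1235 CPM in S14R/+, a log2 fold change of -0.02 ± 0.05. Rplp1 and Rplp2 had -0.01 ± 0.04 and -0.02 ± 0.04, Rpl5 and Rpl11 -0.05 ± 0.04 and -0.02 ± 0.04, and Rps6 -0.01 ± 0.03. Rpl4 stood at 938, 994 and 967 CPM against 975, 963 and 1006 CPM (0.02 ± 0.05). All of these groups overlapped. Rps27a, which is made as a fusion with ubiquitin, stood at 338, 276 and 341 CPM against 291, 269 and 304 CPM (-0.15 ± 0.08), with wild-type replicate 2 again within the S14R/+ range. The highest fold changes belonged to Rpl3l (0.40 ± 0.32) and Rpl39 (0.35 ± 0.38), both from at most 45 counts in a library, then to Rps4y2 (0.11 ± 0.05) and Rpl13 (0.10 ± 0.13). The lowest belonged to Rpl39l (-0.78 ± 0.49), from at most 18 counts in a library.

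Some members had few counts in 1 table only. In the Ift88 table Rpl26 had 0 counts in all 5 libraries, Rpl30 had 8 to 40, Rps27 12 to 90 and Rpl34 37 to 186, while in the Dzip1 table Rpl26 stood between 256 and 303 CPM and Rpl30 between 250 and 267 CPM. In the Dzip1 table Rpl39 had 11 to 28 counts, while in the Ift88 table it had 1826 to 12968. Ribosomal protein genes have many near-identical pseudogenes, and how the authors counted reads with several matches is not stated in the sources used here, so the levels of these members are uncertain. The family members with a pseudogene name that were listed, 7 and 9, held at most 592 and 842 counts in a library. Rps4l, a pseudogene by its annotation that was counted as a member, held 1825 to 3804 counts in the Ift88 table. Under the name Rps4y2 it held 7459 to 10455 in the Dzip1 table.

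Levels per length gave the order of members within the wild type. In the Dzip1 experiment Rplp1 was the highest with 1264 CPM per kilobase, followed by Rplp0 with 891 and Rps24 with 872. Rps24 ranked above Rplp0 in wild-type replicates 1 and 3 and below it in replicate 2, so the order of these 2 is not fixed. In the Ift88 experiment Rpl41, the shortest ribosomal protein, and Rps14 led with 2359 and 2342 CPM per kilobase. Rps14 and Rpl41 ranked the other way round in its wild-type replicate 1. Most paralogs stood low in both orders: Rpl7l1 had 131 and 69.3 CPM per kilobase and Rpl39l 0.678 and 0.327 in the Ift88 and Dzip1 wild type. Rps27l was an exception in the Ift88 wild type, with 627.5 CPM per kilobase and an uncertain source, as given above. In the Dzip1 wild type Rpl39 itself had only 0.344 CPM per kilobase, so Rpl39l was not low beside its parent there.

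Other genes of the translation apparatus were described by lists. Mitochondrial ribosomal proteins, which build the separate ribosome of mitochondria, had a median log2 fold change of -0.67 in the Ift88 experiment, with 77 of 77 below 0. In the Dzip1 experiment their median was 0.06, with 63 of 75 above 0 and every S14R/+ library above every wild-type library in 17, against 5.27% of tested genes. Mrps36 stood at 17.3, 17.5 and 17.2 CPM in the Dzip1 wild type and at 19.6, 19.5 and 19.6 CPM in S14R/+ (0.18 ± 0.05, adjusted p = 0.822 in edgeR). The groups of Mrps36 did not overlap, on the opposite side from Rps28. Mrps24 and Mrpl14 had -0.9965 ± 0.33 and -1.09 ± 0.39 in the Ift88 experiment. edgeR called none of the genes in these lists.

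A list of translation factors and of other genes known for pyrimidine-tract mRNAs (24 genes, Fau among them) had medians of -0.40 and 0.01 in the Ift88 and Dzip1 experiments. In the Ift88 experiment Eif3a, the largest subunit of an initiation factor, stood at 67.3 and 59.4 CPM in the wild type and at 223, 223 and 174 CPM in the knockout (1.71 ± 0.34, adjusted p = 0.802 in edgeR). Fau, which encodes a ribosomal protein outside the name rule, had -0.86 ± 0.38. Eif3a thus lay on the opposite side from the ribosomal proteins, and Fau on the same side. Ribosome biogenesis genes (48 genes) had medians of 0.09 and -0.005, with Polr1a, the largest subunit of RNA polymerase I, at 1.84 ± 0.46 and Polr1c, a smaller subunit, at -1.12 ± 0.34 in the Ift88 experiment. Regulators of mTOR and Myc (15 genes) had medians of 0.43 and 0.01. Larp1, which binds pyrimidine tracts, stood at 2.25 and 3.19 CPM in the Ift88 wild type and at 17.2, 28.9 and 12.1 CPM in the knockout (2.83 ± 0.74, adjusted p = 0.802 in edgeR), without overlap. Long genes had higher values than short genes in this comparison, as given above, and the part of length in these values was not tested.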

How the data were processed

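Gene counts were deposited by the authors, 1 table per experiment, with a column of raw counts per library, per the file headers. FastQC 0.11.5, cutadapt 1.11, HTSeq, DESeq2 and DESeq are named with GRCm38 in the submitters' processing notes; the aligner, annotation and strand setting were not given in the sources used here. Libraries were made from low-input total RNA with SMART-Seq v4, per the labels' protocols. The statistics in the deposited tables were not used.

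Each experiment was fitted apart on all genes with edgeR's quasi-likelihood test (edgeR 4.0.16, R 4.3.3; TMM scaling, filterByExpr, genotype only, Benjamini-Hochberg threshold 0.05), tested first on simulated data. DESeq2 1.42.0 and limma-voom (limma 3.58.1), other scalings and filters, a length correction (lowess, span 0.3) and each library left out were the alternatives. The within-prefix ratios (0.5 CPM added) were added after seeing the data. Lengths came from GENCODE M21, usually the shortest consensus coding transcript; the transcript used for Rps20 is unusually long. Counting intervals and floors (3 counts) cover counting error only.

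The members and lists were chosen with earlier results of these data known. Named were a set list of members, the 4 lowest and 4 highest fold changes, and up to 3 genes of each other list with the smallest p. The Dzip1 members whose groups did not overlap and the members with few counts were named after their values were seen.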

Additional observations from a re-analysis of the deposited data

How the results depend on the processing

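No member was called in the Ift88 experiment under any of the 17 alternatives run, and in the Dzip1 experiment the count of calls was 0 under 15 of 16 and 2 without wild-type replicate 2 (range with 1 library left out: 0 to 2). The Ift88 median of all members stayed below 0 throughout, from -0.85 to -0.29 with 1 library left out. With the length trend removed it was -0.24 (small subunit -0.31), and among the IR28N libraries alone it was -0.15 (large -0.11, small -0.16); the cause was not tested. The log2 ratio of the Ift88 shares of counts ran from -0.94 to 0.0028 with 1 library left out. Large-subunit minus small-subunit medians stayed above 0, from 0.05 to 0.12 in Ift88 and from 0.02 to 0.05 in Dzip1. Among the 39 named Dzip1 members 19 of 543 values under the alternatives changed sign, 0 of them by more than 1 standard error. Among the 34 named Ift88 members 29 of 507 values changed sign, 6 of them by more than 1 standard error. Among the IR28N libraries these were Rpl13a (0.15), Rpl4 (0.38), Rps19 (0.11) and Rps25 (0.021). The others were Rpl13a without wild-type replicate 2 (-1.18 to 0.047 with 1 library left out) and Rps4l without wild-type replicate 1 (-0.87 to 0.21). With 1 wild-type library left, that library is assumed to vary like the others. No paired analysis was possible because the labels give no replicate numbers shared between genotypes; the Ift88 title prefix was fitted as a covariate in place of a block (median -0.61, no member called). With 2 wild-type libraries and a spread of 87.7%, the Ift88 values have wide errors.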
